A study of Mus musculus with 13 samples.

Results

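The cells described here were tumour fibroblasts that carried RNA of both Lrrc15 and Acta2, in mammary tumours driven by Wnt1. Members were chosen by UMI counts (a UMI is 1 captured RNA molecule). A barcode counted as a fibroblast if it held 500 to 7500 genes, at most 10% mt- UMIs, at least 50 UMIs of Dcn, Lum and Col1a2 together per 10000, and no UMI of Epcam, Pecam1, Rgs5, Sox10, Ptprc or Myog. A fibroblast was a member if it held at least 2 UMIs of Lrrc15 and at least 1 UMI of Acta2. This rule took 2005 of 8917 fibroblasts in tumour 1 and 2211 of 4236 in tumour 2, in all 4216 of 13153. The whole series held 120355 barcodes, of which 100523 were fibroblasts by the same limits. Members were compared with the other fibroblasts of the same tumour, 6912 in tumour 1 and 2025 in tumour 2. Because Lrrc15, Acta2 and the other rule genes selected the cells, their levels are given as a description without a test.

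Both tumours came from female mice of the genotype Pdgfra-GFP KI/+ MMTV-Wnt1 T/+ on the raGFP-Wnt1 background (C57BL/6 FVB mixed), aged 45 weeks for tumour 1 and 17 weeks for tumour 2. A hyperplastic gland of each of the same mice, with the same alleles, gave hyperplasia 1 and hyperplasia 2. The MMTV promoter directs Wnt1 to the mammary epithelium, and the Pdgfra reporter was used to sort lineage-negative GFP+ cells, so fibroblasts that had lost the reporter were outside the sort. Age and replicate cannot be told apart with 1 mouse at each age. The other 9 libraries were from wild-type C57BL/6 glands sorted as lineage-negative CD24- cells, 1 each at puberty (4 weeks of age), adulthood (9 weeks), day 14.5 of pregnancy, day 10 of lactation and day 4 of involution, and 2 each at 9 weeks after 7 days of placebo or MPA+E (medroxyprogesterone acetate with oestrogen). Each of these libraries pooled 2 females.

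Myofibroblasts are fibroblasts that build actin stress fibres and contract, and Acta2, which encodes smooth muscle actin, is their usual marker. Lrrc15 encodes a membrane protein with leucine-rich repeats and is induced by TGF-beta in cultured stromal cells. It marks a population of matrix-producing fibroblasts in several carcinomas. Such cells are commonly set against fibroblasts with progenitor markers (Pi16, Dpp4, Ly6a, Cd34) and against inflammatory fibroblasts that secrete Il6, Cxcl12 and complement.

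The 5 genes that mark the members lie at 16:30269302-30283254 (Lrrc15), 19:34240336-34255585 (Acta2), 9:45929628-45936058 (Tagln), 9:79598987-79721141 (Col12a1) and 3:114030479-114220756 (Col11a1) in RefSeq's GRCm38.p6. Levels below are UMIs per 1000000 (CPM) of all UMIs summed over a class of cells in 1 tumour. Lrrc15 stood at 617 CPM in members and 130 in other fibroblasts of tumour 1, and at 518 and 156 in tumour 2. Acta2 stood at 698 and 23.8 CPM in tumour 1, and at 1022 and 156 in tumour 2. The 3 markers that did not enter the rule were also higher in members of both tumours. They were chosen with earlier results of these data known, so their levels describe the members and are no independent support. Tagln, an actin-binding protein of smooth muscle, was at 1271 against 89.9 CPM in tumour 1 and at 1610 against 295 in tumour 2. Col12a1, a collagen that lies along other fibrils, was at 2453 against 743 CPM and at 1449 against 766. Col11a1, a minor fibrillar collagen, was at 318 against 49.1 CPM and at 151 against 58.9. Among the genes of the fibroblast limit, Dcn and Lum were lower in members and Col1a2 was higher. Dcn stood at 2720 against 6766 CPM in tumour 1 and at 2350 against 4546 in tumour 2. Lum stood at 1162 against 1853 and 1099 against 1507 CPM, and Col1a2 at 13291 against 10057 and 14422 against 11705.

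Lrrc15 Acta2 cells made up 22.5% of the fibroblasts of tumour 1 (95% exact binomial interval 21.6 to 23.4) and 52.2% of those of tumour 2 (50.7 to 53.7). In the hyperplastic glands of the same mice the rule took 1 of 6044 fibroblasts (0.0165%, 0.000419 to 0.0922) and 6 of 7984 (0.0752%, 0.0276 to 0.164). The mean share was 37.3% ± 21.0 (SD, n = 2) in tumours and 0.0458% ± 0.0414 in hyperplasia. Tumour and hyperplasia shares did not overlap. They are a description without a test, since the rule itself sets them. These intervals cover counting error only.

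Since the rule asks for UMIs, deeper cells passed it more readily. The median fibroblast held 10824 UMIs in tumour 1, 20256 in tumour 2, 8703 in hyperplasia 1 and 8312 in hyperplasia 2. Each fibroblast was therefore thinned to 5000 UMIs, which left out 1094, 303, 703 and 1304 shallower cells. Members were then 1144 of 7823 (14.6%, 13.8 to 15.4) in tumour 1 and 1081 of 3933 (27.5%, 26.1 to 28.9) in tumour 2, against 0 of 5341 and 0 of 6680 in hyperplasia, with upper limits of 0.069% and 0.0552%. Tumour 2 kept the higher share at even depth, and the tumours stayed above the hyperplasia. In the 9 wild-type libraries the share ran from 0.0507% (involution) to 1.44% (MPA+E 1) as deposited and from 0.0124% to 1.66% (pregnancy) after thinning. The pregnancy value is 50 of 3007 cells, since 8494 of its 11501 fibroblasts were too shallow, and its share as deposited was 0.80%. The 0.0124% is 1 of 8082 cells, in involution.

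**Figure D1:**
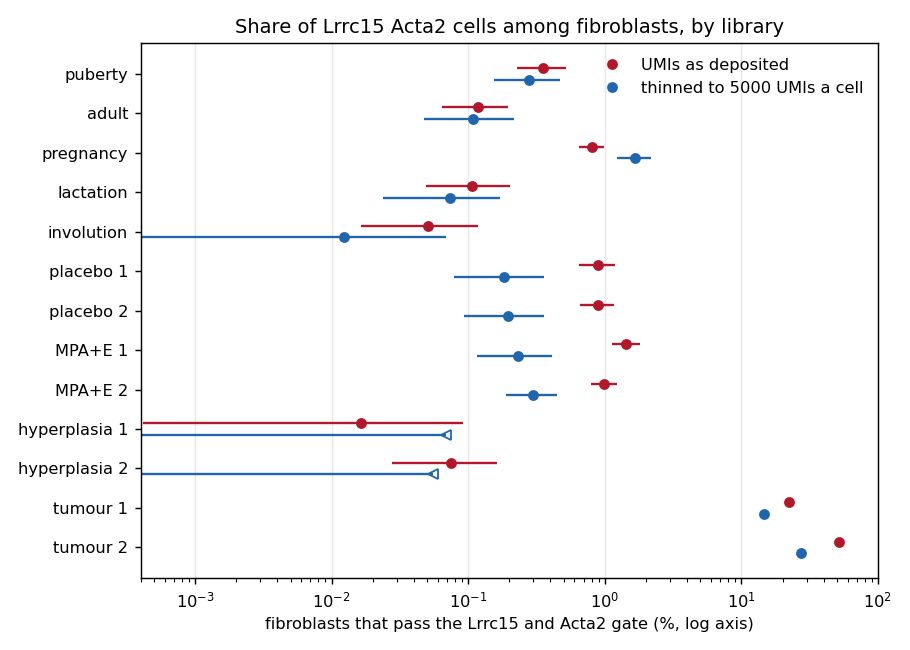
Share of fibroblasts that passed the Lrrc15 and Acta2 rule in each of the 13 libraries, in percent on a log axis, with UMIs as deposited (red) and with each cell thinned to 5000 UMIs (blue). Points are shares, lines are 95% exact binomial intervals, and open triangles mark the upper limit where no cell passed. Tumours 1 and 2, at 22.5% and 52.2%, lie to the right of every other library at either depth.

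The 399 cells of wild-type glands that passed the rule had lower Col12a1 and Col11a1 than tumour members, with Postn in a like range. Their Col12a1 ranged from 71.0 CPM in lactation to 241 in pregnancy, below the 1449 CPM of tumour 2 members, and Col11a1 reached at most 67.5 CPM, in pregnancy. Postn, which encodes periostin, ran from 3142 CPM in the adult gland to 6877 in involution, on both sides of the 4061 and 4831 CPM of tumour members. The adult, lactation and involution levels rest on 14, 9 and 5 cells, and the lactation level of Col12a1 on 6 UMIs. The 3.46 CPM of Myh11 given below is 1 UMI, in puberty. Tagln reached at most 564 CPM, in puberty. Myh11, smooth muscle myosin, was at 91.1 CPM in those of pregnancy and at 154 and 164 CPM in those of MPA+E 1 and 2, at 0 to 3.46 CPM in those of the other 6 libraries, and at 0.451 and 0.783 CPM in tumour members. The gate therefore did not select cells with the same levels of these genes in normal gland and in tumour.

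Both gate genes were also counted against each other after thinning, as a description without a test, since their UMIs are what the rule used. Of cells with at least 2 Lrrc15 UMIs after thinning, 50.7% also held Acta2 in tumour 1 (1144 of 2258), against 12.1% (676 of 5565) of the remainder. In tumour 2 the shares were 66.2% (1081 of 1632) and 38.9% (894 of 2301). Free RNA can place UMIs in droplets of cells that do not make a transcript. Among barcodes with fibroblast genes under the limit and a UMI of an excluded marker, 3 of 57 passed the gate in tumour 1 (5.26%, 1.1 to 14.6; median 11779 UMIs) and 3 of 267 in tumour 2 (1.12%, 0.232 to 3.25; median 9848 UMIs). Without the excluded-marker condition, 103 of 434 barcodes under the fibroblast limit passed in tumour 1 (23.7%, 19.8 to 28.0; median 7892 UMIs) and 20 of 408 in tumour 2 (4.90%, 3.02 to 7.47; median 9429 UMIs). The first of these shares is as high as the 22.5% of fibroblasts that passed in tumour 1, and the second is below the 52.2% of tumour 2. Those barcodes were not counted as members.

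Members were larger libraries than the other fibroblasts. Their medians were 14254 UMIs and 3691 genes against 9823 and 2931 in tumour 1, and 23705 UMIs and 4725 genes against 16049 and 3896 in tumour 2. Median mt- shares were 3.28% and 3.56% in tumour 1, and 2.94% and 3.03% in tumour 2. Scrublet, which scores barcodes for likeness to simulated pairs of cells, placed 15.4% of members and 7.03% of others of tumour 1 among the expected doublets, and 5.02% and 2.72% in tumour 2. The part of doublets in the results was not tested, and the count of called genes below is given again without them. Tumours 1 and 2 shared 18 barcodes, none of them a member in both.

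The Lrrc15 threshold did not separate cells by a gap. In tumour 1 the 168 members at exactly 2 Lrrc15 UMIs held 620 CPM of Tagln and 1463 of Col12a1, and the 212 cells with Acta2 but only 1 Lrrc15 UMI held 575 and 821. In tumour 2 the 198 members at the edge held 750 and 1035 CPM, and the 242 just outside held 643 and 866. At the Acta2 edge, 450 members of tumour 1 with 1 Acta2 UMI held 357 CPM of Tagln, and the 1505 cells with Lrrc15 and no Acta2 UMI held 155. The corresponding values in tumour 2 were 306 CPM in 361 cells and 170 in 713. Members with at least 4 Lrrc15 and 3 Acta2 UMIs (1132 and 1459 cells) held 1751 and 2032 CPM of Tagln. The members are thus a range of levels cut at a threshold.

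Counts were summed per tumour and class, and members were compared with others by limma-voom with tumour as a block, over 14618 genes. The 2 tumours are the replicates, which leaves 1 residual degree of freedom. At an adjusted p under 0.05, 31 genes rose (0.212% of those tested) and 178 fell (1.22%). Lrrc15 is among the 31, through the rule. By size alone, 144 genes (0.985%) were at least 2-fold higher and 376 (2.57%) at least 2-fold lower in members of both tumours. With the expected doublets removed, no gene passed by limma-voom (2707 at an unadjusted p under 0.05) or by edgeR's quasi-likelihood test (2577), while DESeq2 called 664. Sizes without doublets were compared for the called genes named in the text. In limma-voom all 47 of them kept their direction, with log2 differences 1.03 to 1.34 times those of the full set, and their adjusted p-values lay between 0.0702 and 0.129. Without the tumour block no gene passed either (901 at an unadjusted p under 0.05, limma-voom). The calls below are those of the full set of cells and the paired fit. Counts of calls in each list below are to be read beside the all-gene shares of 0.212% higher and 1.22% lower. The median difference over all genes tested was -0.02 on the log2 scale, and 37.6% of them were lower and 31.8% higher in members of both tumours.

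Contractile genes were the clearest group that was higher in members. Of 24 listed genes, all of them tested, 4 rose, none fell, and 8 were at least 2-fold higher in both tumours, with a median of 0.82 on the log2 scale. The 8 include Actg2, Cnn1 and Myh11, which were scarce in members and others alike. Over all genes tested, 0.212% rose and 0.985% were at least 2-fold higher in both tumours. Tagln, a marker chosen with earlier results of these data known, rose by 3.13 ± 0.32 (log2 ± SE, adjusted p = 0.0422, limma). Myl9, the regulatory light chain of smooth muscle myosin, stood at 115 against 23.0 CPM in tumour 1 and at 120 against 28.8 in tumour 2, a rise of 2.17 ± 0.10 (adjusted p = 0.0197, limma). Tpm2, a tropomyosin that lies along actin filaments, stood at 357 against 51.4 CPM and at 427 against 130, a rise of 2.24 ± 0.25 (adjusted p = 0.0465, limma). Actg2, the enteric smooth muscle actin, was scarce, at 3.93 against 0.56 and 15.4 against 1.92 CPM, and rose by 2.91 ± 0.23 (adjusted p = 0.0257, limma). Actg2 and Acta2 are close copies whose reads counting could share, so Actg2 is uncertain here.

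Most of the other contractile genes had higher levels in members without passing the test. Cnn2, a calponin, was at 229 against 55.3 CPM in tumour 1 and at 245 against 104 in tumour 2 (difference 1.63, adjusted p = 0.0502, limma). Tpm1 was at 595 against 170 and 754 against 365 CPM, Cald1 (caldesmon) at 1379 against 615 and 1407 against 953, and Myh9, the non-muscle myosin heavy chain, at 501 against 217 and 480 against 349. Genes of mature smooth muscle stayed low. Myh11 was at 0.451 against 0.0839 CPM and 0.783 against 0.122, and Cnn1 at 0.966 against 0.168 and 3.66 against 0.608. Exceptions in direction were Pxn, a focal adhesion adaptor, at 22.2 against 47.3 and 16.3 against 28.3 CPM, and Zyx and Des, which differed in sign between the tumours.

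Many contractile genes are known targets of serum response factor, which binds the CArG box (CC, then 6 bases each A or T, then GG). The 250 bases before the start of each gene were searched in RefSeq's promoter table for GRCm38.p6. The motif is its own reverse complement in form, so a search of 1 strand covers both. Of 24 contractile genes 19 had an entry, and 3 of those (15.8%) held the motif, against 439 of 27025 genes (1.62%). Acta2 held none in this window, and Tagln had no entry in the table. The 3 sequences are shown because their genes belong to the group with the higher levels, with the motif in capitals. They lie at chr2:156775214-156775463 (Myl9, + strand), chr10:79988350-79988599 (Cnn2, + strand) and chr14:20929148-20929397 (Vcl, + strand), and the motif ends 152, 47 and 218 bases before the start. Of these, Myl9 rose, whereas Cnn2 and Vcl (133 against 75.5 and 182 against 145 CPM) did not pass the test. A match is a description of letters and not a shown binding site.
Myl9: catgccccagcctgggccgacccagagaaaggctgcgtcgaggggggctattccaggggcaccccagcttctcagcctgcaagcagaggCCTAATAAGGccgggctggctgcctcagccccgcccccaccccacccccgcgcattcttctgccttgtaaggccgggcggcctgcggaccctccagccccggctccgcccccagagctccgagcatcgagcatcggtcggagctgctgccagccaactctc
Cnn2: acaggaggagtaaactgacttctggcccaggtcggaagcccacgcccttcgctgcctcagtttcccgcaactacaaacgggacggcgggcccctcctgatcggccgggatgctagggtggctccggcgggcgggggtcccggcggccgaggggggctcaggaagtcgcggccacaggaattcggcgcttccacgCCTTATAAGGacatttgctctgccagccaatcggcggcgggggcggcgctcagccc
Vcl: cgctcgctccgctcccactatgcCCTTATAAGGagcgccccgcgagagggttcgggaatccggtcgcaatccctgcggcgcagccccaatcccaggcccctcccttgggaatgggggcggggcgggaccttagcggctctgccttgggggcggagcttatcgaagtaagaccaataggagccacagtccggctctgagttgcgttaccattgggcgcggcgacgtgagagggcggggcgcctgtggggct

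**Figure D2:**
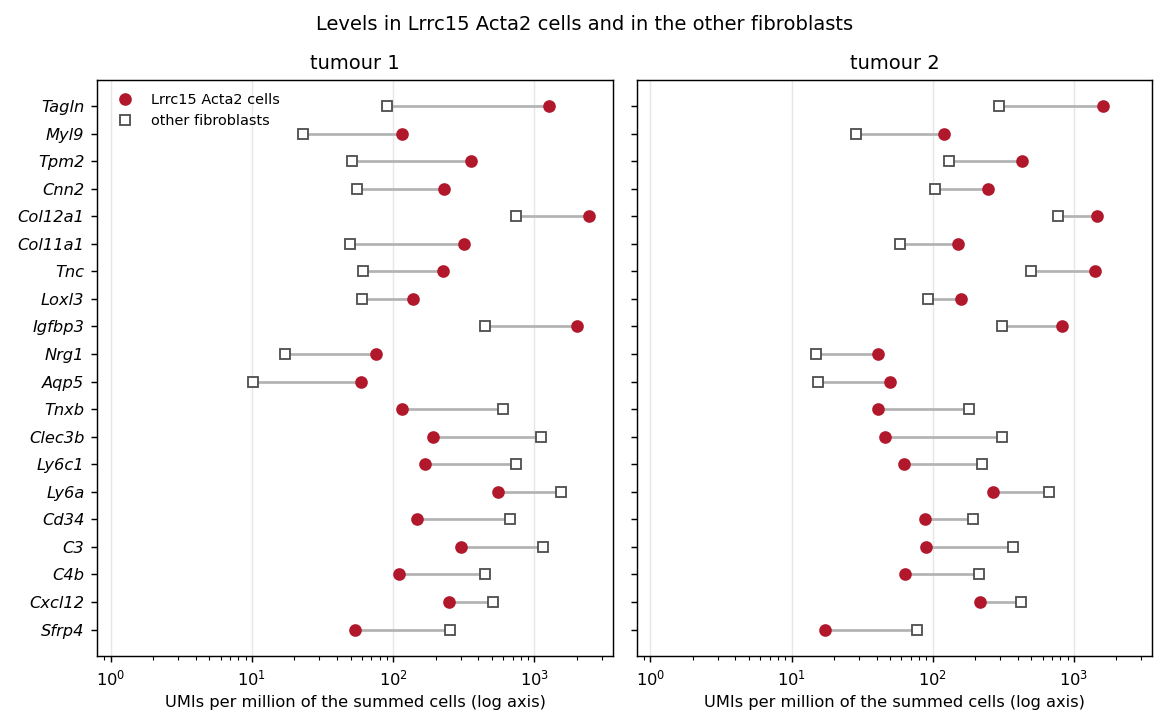
Levels of 20 genes in Lrrc15 Acta2 cells (red circles) and in the other fibroblasts (open squares) of tumour 1 and tumour 2, in CPM of the summed cells on a log axis. Contractile genes and matrix markers lie to the right in members, and progenitor and inflammatory genes such as Clec3b (191 against 1122 CPM in tumour 1) and C3 (301 against 1148) lie to the left.

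No collagen passed the test. None of the 11 fibrillar and fibril-associated collagens passed the test (median 0.25), and none of 13 other collagens did (median 0.31). Col11a1 differed by 2.02 ± 0.31 (adjusted p = 0.073, limma) and Col12a1 by 1.29 ± 0.20 (adjusted p = 0.073, limma), the widest positive differences of the first list. The abundant fibrillar collagens lay in opposite directions, and neither passed the test. Col1a1 was higher in members, at 13306 against 8658 CPM in tumour 1 and at 15438 against 11761 in tumour 2 (0.48 ± 0.11, adjusted p = 0.129, limma). Col3a1 was lower in members, at 13817 against 18431 and 14385 against 15756 CPM (-0.30 ± 0.13, adjusted p = 0.292, limma). Col8a1 and Col8a2, short-chain collagens, were at 1557 against 421 and 136 against 30.7 CPM in tumour 1 and at 1535 against 902 and 69.8 against 33.3 in tumour 2. Col14a1 was lower in members, at 637 against 1258 and 681 against 857.

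Matricellular proteins, which lie in the matrix and modulate adhesion, gave 1 rise and 1 fall among 30 genes. Both were tenascins. Tnc rose from 60.6 to 226 CPM in tumour 1 and from 494 to 1403 in tumour 2 (1.69 ± 0.11, adjusted p = 0.0223, limma). Tnxb fell from 604 to 115 CPM and from 182 to 40.7 (-2.30 ± 0.11, adjusted p = 0.0197, limma). The Tnc level of tumour 2 members was above that of tumour 1 members, and so was the level in other fibroblasts. Spp1, the secreted phosphoprotein osteopontin, had the same order, at 132 and 808 CPM in members and 34.7 and 441 in others. Periostin (Postn) was at 4061 against 1859.9 and 4831 against 3438 CPM, and Ccn2, a connective tissue growth factor, at 1146 against 427 and 1095 against 704. Neither passed the test. Fn1, fibronectin, was lower in members, at 3049 against 5902 and 2702 against 3114 CPM.

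Of 18 genes that crosslink or process collagen, Loxl3, a lysyl oxidase, was the 1 that passed, at 137 against 59.8 and 159 against 91.8 CPM (a rise of 0.97 ± 0.11, adjusted p = 0.0489, limma). Lox itself was at 1105 against 831 and 778 against 653 CPM. Among 25 proteases and inhibitors 3 fell and none rose, against 1.22% and 0.212% of all genes tested. Adamts5, which cleaves aggrecan and versican, fell from 999 to 368 and from 452 to 176 CPM (-1.43 ± 0.10, adjusted p = 0.0223, limma). Mmp3, stromelysin, fell from 1070.3 to 581 and from 1187 to 483 CPM, and Plau, the urokinase, from 37.7 to 18.2 and from 40.8 to 20.2. Timp3, which inhibits metalloproteinases, was at 2604 against 771 CPM in tumour 1 and 1191 against 800 in tumour 2 and did not pass. Fap, a serine protease often used to mark tumour fibroblasts, was lower in members, at 84.9 against 150 and 97.7 against 114 CPM.

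Of 33 TGF-beta and BMP genes, 3 fell and none rose (median 0.01), against 1.22% and 0.212% of all genes tested. Over the whole list, 12 genes were higher and 13 lower in members of both tumours, as were 31.8% and 37.6% of all genes tested. Of 5 ligands of the TGF-beta and activin branch, 4 were higher in members of both tumours and none passed. Tgfb1 was at 108 against 45.1 and 111 against 75.1 CPM, Tgfb3 at 163 against 52.3 and 142 against 78.3, and Inhba, the activin A subunit, at 142 against 27.1 and 178 against 96.0. Tgfb2 was close, at 51.8 against 43.8 and 70.8 against 61.7 CPM, and Inhbb, the activin B subunit, was at 44.3 against 22.8 in tumour 1 and 24.6 against 26.6 in tumour 2. The BMP family members Bmp4 and Gdf10 fell, from 10.5 to 1.77 and 5.68 to 0.528 CPM and from 24.8 to 7.12 and 29.4 to 9.58. Of the latent TGF-beta binding proteins, Ltbp1 fell, from 128 to 26.8 and from 57.6 to 19.9 CPM (-1.92 ± 0.21, adjusted p = 0.0452, limma). Ltbp2 lay the other way, at 431 against 93.3 and 172 against 85.4, and did not pass (1.58 ± 0.28, adjusted p = 0.089, limma). None of 28 mesenchymal transcription factors passed. The widest difference there was that of Scx, a tendon factor, at 7.02 against 0.518 and 6.21 against 1.88 CPM.

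Progenitor genes were lower in members throughout. All 12 listed genes were lower in members of both tumours (37.6% of all genes tested were), 9 of them at least 2-fold, and 3 passed the test, with a median of -1.62. Clec3b, which encodes tetranectin, fell from 1122 to 191 CPM in tumour 1 and from 307 to 45.7 in tumour 2 (-2.68 ± 0.09, adjusted p = 0.0197, limma). Ly6c1 fell from 742 to 168 and from 223 to 62.4 CPM (-2.01 ± 0.12, adjusted p = 0.0223, limma), and Ly6a, which encodes Sca-1, from 1548 to 555 and from 661 to 265 (-1.42 ± 0.11, adjusted p = 0.0235, limma). Cd34 was at 147 against 666 CPM in tumour 1 and at 87.6 against 192 in tumour 2, and Pi16 at 307 against 1056 and 110 against 237. Dpp4 and Sema3c had the same order. None of these 4 passed the test. The list's median was -2.15 in tumour 1 and -1.17 in tumour 2.

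Of 23 inflammatory genes 5 fell and none rose (median -0.98), and 19 were lower in members of both tumours, as were 37.6% of all genes tested. Complement C3 fell from 1148 to 301 and from 367 to 89.3 CPM (-2.01 ± 0.09, adjusted p = 0.0197, limma), and C4b from 448 to 110 and from 213 to 64.1. Il6 fell from 650 to 246 and from 358 to 155 CPM, the chemokine Cxcl12 from 509 to 250 and from 424 to 217, and Cxcl10 from 192 to 72.3 and from 92.4 to 32.5. Cxcl14, a chemokine outside this list, was higher in members, at 2930 against 878 and 2187 against 1771 CPM, without passing. Lif, a cytokine of the Il6 family, and Il11 were the 2 of the list with higher levels in members of both tumours. Lif was at 39.1 against 12.1 and 64.0 against 41.2 CPM, without passing. Adm, the vasoactive peptide adrenomedullin, listed with hypoxia genes, fell from 391 to 91.1 and from 268 to 54.0 CPM (-2.24 ± 0.09, adjusted p = 0.0197, limma). It was the 1 call among 20 glycolysis and hypoxia genes tested.

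**Figure D3:**
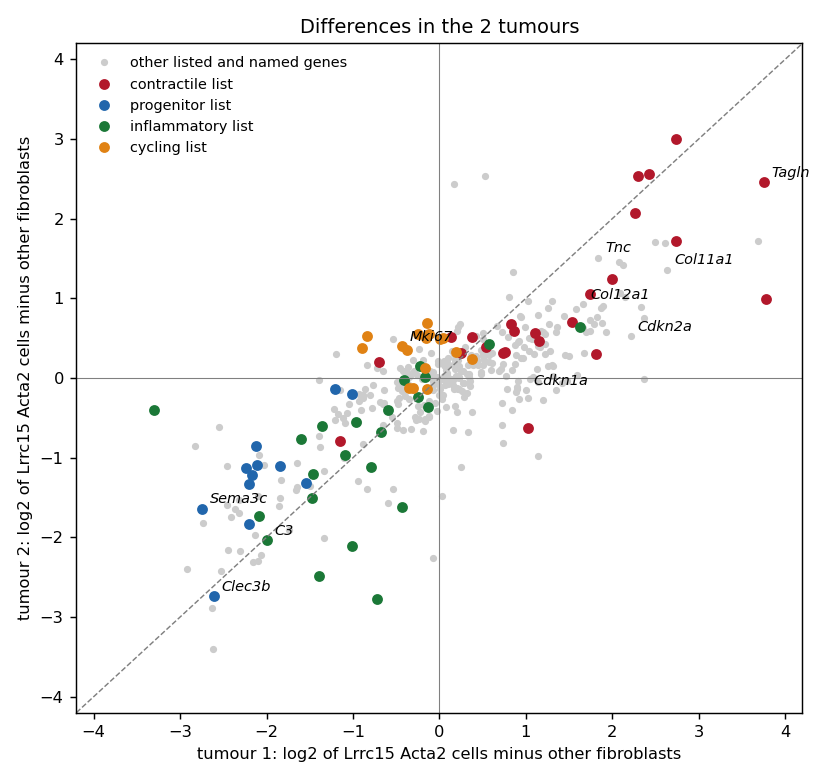
Difference between Lrrc15 Acta2 cells and other fibroblasts in tumour 1 (x axis) and tumour 2 (y axis), in log2 units, for each listed or named gene other than the rule genes. Contractile genes (red) lie mostly in the upper right, the 12 progenitor genes (blue) and 19 of 23 inflammatory genes (green) in the lower left, and the 16 cycling genes (orange) spread around 0 in tumour 1 (median -0.16) and mostly above it in tumour 2 (median 0.39). The dashed line marks equal differences.

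Genes that mark states of normal gland fibroblasts gave 4 falls and no rise among 15, with 10 lower and 4 higher in members of both tumours, against 37.6% and 31.8% of all genes tested. Lpl, lipoprotein lipase, fell from 625 to 206 and from 418 to 157 CPM, and Fabp4, a fatty acid carrier, from 40.3 to 16.7 and from 45.0 to 11.1. Fmo2, a flavin monooxygenase, fell from 22.1 to 6.86 and from 14.1 to 3.74 CPM, and Gdf10 is given above. The 4 with higher levels, none of which passed, were Cilp (1603 against 701 and 733 against 679 CPM), Thbs4 (124 against 48.8 and 74.5 against 58.9), Clec11a (135 against 52.0 and 121 against 109) and Stra6 (52.1 against 14.9 and 39.7 against 24.0). Cilp and Thbs4 are listed as lobular markers, and Clec11a stands with Gdf10 in the adipogenesis-regulatory set. Bmp5 and Fndc1, which the study also names for lobular-like fibroblasts, were lower in members of both tumours without passing. Bmp5 was at 2.09 against 7.27 and 0.273 against 0.790 CPM, and Fndc1 at 264 against 432 and 163 against 173. Crabp1, a retinoic acid binding protein, differed between the tumours. It stood at 392 against 170 CPM in tumour 1 and at 360 against 374 in tumour 2. Of 9 general fibroblast genes none passed, and Pdgfra, whose reporter was used in the sort, was at 138 against 186 and 96.5 against 150 CPM.

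Cell cycle inhibitors and genes linked to senescence gave 1 rise and 1 fall among 18, against 0.212% and 1.22% of all genes tested. Igfbp3, which binds insulin-like growth factors, rose from 443 to 2018 CPM in tumour 1 and from 309 to 822 in tumour 2 (1.76 ± 0.19, adjusted p = 0.0465, limma). Cdkn1c, the p57 inhibitor, fell from 89.2 to 36.8 and from 60.4 to 26.7 CPM (-1.26 ± 0.09, adjusted p = 0.0238, limma). Several others differed more in tumour 1 than in tumour 2. Cdkn2a, which encodes p16 and p19, was at 247 against 51.1 CPM in tumour 1 and at 116 against 80.9 in tumour 2 (1.39 ± 0.41, adjusted p = 0.174, limma). Cdkn2b was at 148 against 37.3 and 119 against 79.7 CPM. Cdkn1a, p21, was higher in members of tumour 1 (907 against 433 CPM) and lower in those of tumour 2 (374 against 418). Cxcl14, a chemokine, was at 2929.8 against 878 and 2187 against 1771 CPM.

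At 5000 UMIs a cell, 80.0% of tumour 1 members and 73.6% of tumour 2 members held a Tagln UMI, against 14.97% and 29.0% of other fibroblasts. Members here were gated on the full counts, and 1978 and 2185 members and 5845 and 1748 others were deep enough to thin. The gate itself was thus not at even depth. Col11a1 was seen in 55.8% against 11.2% in tumour 1 and in 30.7% against 15.8% in tumour 2. Cd34 was seen in 26.8% against 73.5% and in 27.0% against 43.6%. Unthinned, the Cd34 shares were 43.7% against 79.0% and 56.9% against 61.5%, so the gap of tumour 2 was wider at even depth. Cdkn2a was seen in 51.4% of members against 12.0% of others in tumour 1 and in 27.3% against 20.3% in tumour 2 (unthinned 67.2% against 15.2%, and 49.6% against 29.8%). For Cdkn1a the shares were 72.9% against 52.9% and 43.9% against 51.5%, in opposite order in the tumours.

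**Figure D4:**
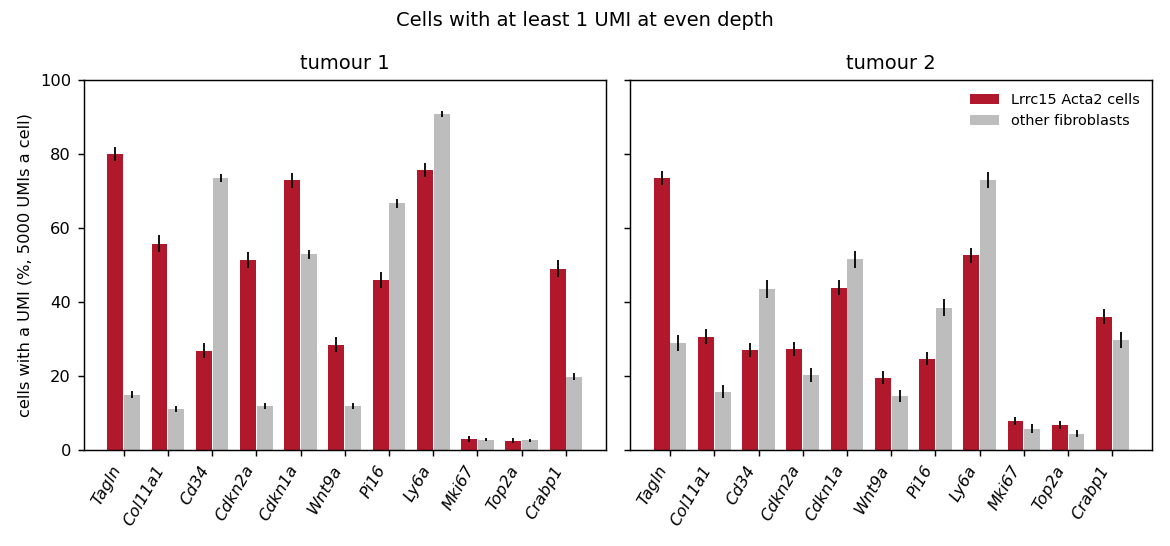
Share of Lrrc15 Acta2 cells (red) and other fibroblasts (grey) with at least 1 UMI of each of 11 genes, in percent, after thinning each cell to 5000 UMIs, with 95% exact binomial intervals as black lines. Tagln and Col11a1 are seen in more members and Cd34, Pi16 and Ly6a in fewer in both tumours, while Cdkn1a has opposite order in the tumours. Cells were gated on their full counts.

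Proliferation did not differ in a common direction. None of 16 cycling genes passed, with medians of -0.16 in tumour 1 and 0.39 in tumour 2. Mki67 was at 15.2 against 19.7 CPM in tumour 1 and 38.4 against 29.2 in tumour 2, and Top2a, the topoisomerase of dividing cells, at 15.3 against 27.3 and 44.1 against 34.0. Members set on the full counts were also read after thinning to 5000 UMIs a cell. Mki67 was then held by 2.93% of members and 2.91% of others in tumour 1, and by 7.87% and 5.78% in tumour 2. With the gate thinned as well, Mki67 differed by -0.70 and Top2a by -1.19 on the log2 scale. Among cells of 10000 to 30000 UMIs they differed by -0.38 and -1.02, and over all cells by 0.03 and -0.19. None of these differences passed. Among members of tumour 1, 65 of 1348 cells with Cdkn2a also held Mki67 or Top2a (4.82%, 3.74 to 6.11; median 13742 UMIs), against 66 of 657 cells without Cdkn2a (10.0%, 7.85 to 12.6; median 15416 UMIs). In tumour 2 the shares were 156 of 1097 (14.2%, 12.2 to 16.4; median 23231 UMIs) and 247 of 1114 (22.2%, 19.8 to 24.7; median 24170 UMIs). Cells of 1 tumour are not replicates, and no test was made.

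Of 39 Wnt genes tested 2 fell and none rose, against 1.22% and 0.212% of all genes tested. Sfrp4, a secreted Wnt antagonist, fell from 254 to 53.7 and from 77.4 to 17.2 CPM (-2.24 ± 0.09, adjusted p = 0.0197, limma), and the receptor Fzd4 from 51.6 to 12.5 and from 23.8 to 8.49 (-1.81 ± 0.17, adjusted p = 0.038, limma). Among ligands, Wnt9a was at 72.8 against 30.0 and 50.4 against 34.6 CPM and Wnt11 at 46.9 against 19.98 and 30.4 against 20.3, without passing. Of 8 tested genes that Wnt signalling induces in many tissues (Axin2, Lef1, Tcf7, Nkd1, Nkd2, Notum, Apcdd1 and Znrf3), none was called, 3 were higher and 1 was lower in members of both tumours, and 4 differed in sign. Nkd1 was at 20.2 against 8.63 and 16.6 against 12.7 CPM. Axin2 was at 11.7 against 13.9 CPM in tumour 1 and 6.83 against 5.87 in tumour 2, and Nkd2 at 162 against 55.8 and 81.8 against 84.3. Wnt1 itself, the transgene of the epithelium, was at or under 0.378 CPM in all 4 sums.

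Outside the lists, the called genes with the widest rises at 20 CPM or more were Sbspon, Aqp5, Nrg1, Ttll5, Dok1, Mgll, Zfp469 and Nt5dc2. Sbspon, a somatomedin B and thrombospondin domain protein, rose from 16.9 to 108 CPM and from 13.8 to 44.5 (2.24 ± 0.22, adjusted p = 0.0401, limma). Aqp5, a water channel known from glands, rose from 10.1 to 59.3 and from 15.3 to 49.9 CPM (2.13 ± 0.20, adjusted p = 0.038, limma). Nrg1, a ligand of the ErbB3 and ErbB4 receptors, rose from 17.2 to 75.8 and from 14.96 to 40.8 CPM (1.81 ± 0.17, adjusted p = 0.0364, limma). In the hyperplasia, over all fibroblasts, Aqp5 was at 0.0354 and 0.193 CPM and Nrg1 at 0.496 and 1.34. The widest falls were those of Scara5, Enpp2, Steap4, Gda, Apoe, Dmkn, Scg3 and Efemp1. Scara5, a ferritin receptor, fell from 231 to 39.0 and from 29.2 to 3.94 CPM (-2.71 ± 0.11, adjusted p = 0.0197, limma). Enpp2, which encodes autotaxin, fell from 83.0 to 11.4 and from 36.8 to 6.94 CPM, and Apoe from 218 to 51.7 and from 75.5 to 19.2. Efemp1, fibulin 3, fell from 861 to 180 and from 297 to 91.5 CPM.

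To see which values went with which gate gene, the fibroblasts of each tumour were split into members, cells with at least 2 Lrrc15 UMIs and no Acta2 (Lrrc15-only, 1505 and 713), cells with Acta2 and under 2 Lrrc15 UMIs (Acta2-only, 536 and 559) and the remaining 4871 and 753. Over 13654 genes, limma-voom with tumour as a block called 12 genes higher (0.0879%) and 27 lower (0.198%) in members than in Lrrc15-only cells. Against Acta2-only cells it called 29 higher (0.212%) and 96 lower (0.703%). Acta2 is among the 12, and both Lrrc15 and Acta2 are among the 29, through the rule. All 4 gates were cut from the same libraries, and both contrasts share the members. The gates also differ in depth. In tumour 1 the 2005 members held 31043852 UMIs and the 4871 remaining cells 45254686. In tumour 2 the 2211 members held 54883914 and the 753 remaining cells 9762430. The split was not repeated on thinned cells, and the part of depth in the levels by gate was not tested.

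Contractile genes were among the calls against Lrrc15-only cells. Tagln was at 1271 CPM in members, 155 in Lrrc15-only, 408 in Acta2-only and 17.9 in remaining cells of tumour 1, and at 1610, 170, 694 and 77.3 in tumour 2. Of the 24 listed contractile genes, 6 were called higher in members than in Lrrc15-only cells (Tagln, Myl9, Tpm2, Tpm1, Flna and Tpm4), and none was called higher than in Acta2-only cells. By edgeR's quasi-likelihood test only Myl9 and Flna of the 6 passed, and the other 4 had adjusted p from 0.0633 to 0.0752. Des, the muscle intermediate filament, was called lower than in Acta2-only cells, at 0.741 against 2.59 and 1.79 against 8.28 CPM. In 17 of the 24 genes members had the highest level of the 4 gates in both tumours, as did 13.3% of all genes tested. Tagln differed by 3.14 ± 0.38 from Lrrc15-only cells (adjusted p = 0.0486, limma) and by 1.45 ± 0.38 from Acta2-only cells (adjusted p = 0.165, limma).

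Against Acta2-only cells the calls were spread over several lists. Of 30 matricellular genes 3 were called higher (Tnc, Thbs2 and Omd) and 1 lower (Tnxb), and none of the 24 collagens was called. Loxl3, Igfbp3 and Wnt9a were also called higher, as were Adam19 and Adamts12 of the 25 proteases and inhibitors, of which Adamts5 was called lower. None of these 8 genes called higher was called against Lrrc15-only cells. Tnc differed about as much from both, by 1.26 from Acta2-only cells (adjusted p = 0.0331, limma) and by 1.15 from Lrrc15-only cells (adjusted p = 0.0553, limma). Igfbp3 was at 2018 CPM in members, 1207 in Lrrc15-only and 432 in Acta2-only cells of tumour 1, and at 822, 518 and 202 in tumour 2 (2.14 above Acta2-only, adjusted p = 0.0469, limma). Wnt9a was at 72.8, 59.1 and 27.8 CPM in tumour 1 and at 50.4, 50.8 and 27.7 in tumour 2 (1.13 above Acta2-only, adjusted p = 0.0445, limma). Its level in members of tumour 2 was that of Lrrc15-only cells. Whether a gene's difference from Lrrc15-only cells departs from its difference from Acta2-only cells was not tested. Of 7 pericyte and smooth muscle markers tested, 2 were called lower in members than in Acta2-only cells, Abcc9 and Kcnj8 (list median -0.92). Abcc9 was also called lower than in Lrrc15-only cells. Both were highest in the remaining cells. Abcc9 was at 36.2 CPM there and 19.9 in Acta2-only cells of tumour 1, and at 12.7 and 3.04 in tumour 2. Notch3 and Mcam were not called. Notch3 was at 10.8 CPM in members and 11.3 in Acta2-only cells of tumour 1, and at 9.04 and 23.9 in tumour 2. Mcam was at 7.09 and 3.89, and at 8.24 and 22.8. The part of such cells in this contrast was not tested.

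**Figure D5:**
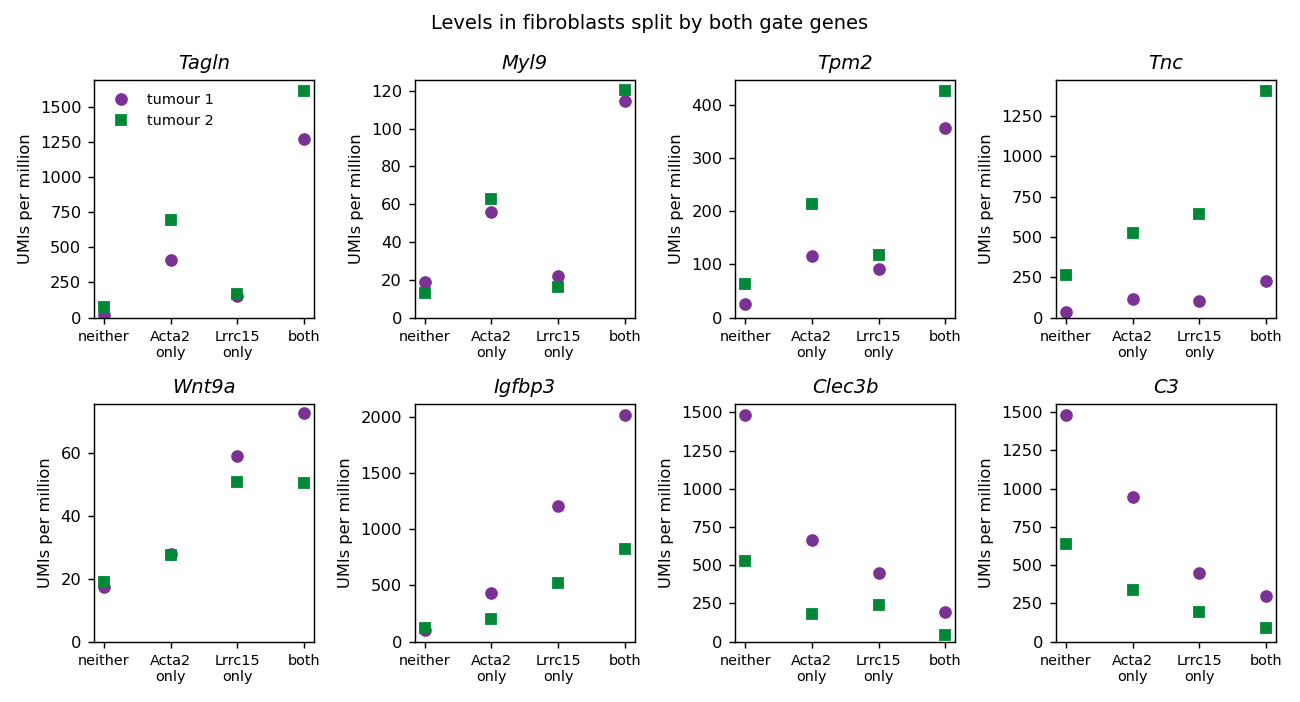
Levels of 8 genes, in CPM, in fibroblasts of tumour 1 (purple circles) and tumour 2 (green squares) that passed neither gate, the Acta2 gate only, the Lrrc15 gate only, or both. Tagln, Myl9 and Tpm2 are higher with Acta2 and highest with both, Wnt9a and Igfbp3 are higher with Lrrc15, and Clec3b and C3 are lowest in cells with both.

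Progenitor and inflammatory genes were graded over both gates. In 11 of 12 progenitor genes and 16 of 23 inflammatory genes members were the lowest of the 4 gates in both tumours, as were 15% of all genes tested. Clec3b was at 191 CPM in members, 449 in Lrrc15-only, 665 in Acta2-only and 1483 in remaining cells of tumour 1, and at 45.7, 238, 181 and 527 in tumour 2. C3 was at 301, 449, 948 and 1485 CPM and at 89.3, 195, 337 and 636. Ly6a, Ly6c1, Tnxb, Sfrp4, Lpl and Efemp1 were called lower in members in both contrasts. C3, C4b, Il6, Cxcl10 and Cxcl12 were called lower against Acta2-only cells. Against Lrrc15-only cells they were lower without a call, with log2 differences of -0.84, -1.07, -0.66, -0.78 and -0.39. Whether the 2 contrasts differ for these genes was not tested.

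Over the 8 gate sums, the 6 genes whose log2 levels were most like that of Lrrc15 among 5680 genes of at least 20 mean CPM were Tmem9 (Pearson r = 0.987), Rufy1 (0.974), Rarg (0.97), Pcsk5 (0.967), Wnt9a (0.965) and Fzd2 (0.962). The gates were cut on Lrrc15 itself, so the rule sets much of its pattern over these sums, and the coefficients rank genes as a description only. Pcsk5, a proprotein convertase, was at 224 and 199 CPM in members and Lrrc15-only cells and 111 and 97.8 in Acta2-only and remaining cells of tumour 1, and at 170, 172, 84.8 and 94.5 in tumour 2. Rarg, a retinoic acid receptor, ran from 21.7 to 31.4 CPM in tumour 1 and from 23.3 to 31.6 in tumour 2.

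Markers of epithelial, endothelial, macrophage and Schwann cells stayed low in members, in which Epcam, Pecam1, Rgs5, Sox10, Ptprc and Myog were at 0 by the rule. Pericyte and smooth muscle markers were more abundant, and their sum was higher in members than in others in tumour 1. Of 8 pericyte and smooth muscle markers 7 were tested and 2 fell. Abcc9 fell from 29.1 to 5.25 and from 6.60 to 1.22 CPM and Kcnj8 from 17.7 to 4.28 and from 4.35 to 0.875, and both encode subunits of a potassium channel. The summed level of the 7 was 174 CPM in members and 119 in others of tumour 1 and 123 and 148 in tumour 2, of which Ndufa4l2 gave 105, 53.4, 86.1 and 103. Cspg4, the NG2 proteoglycan, was the 1 tested marker with higher levels in members of both tumours, at 39.9 against 11.4 and 16.2 against 10.8 CPM, without passing. Notch3 was at 10.8 against 4.52 CPM in tumour 1 and 9.04 against 11.0 in tumour 2. The median difference of the list was 0.92 in tumour 1 and -0.28 in tumour 2. Mcam was at 7.09 against 1.32 and 8.24 against 8.36 CPM, and at 22.8 CPM in the Acta2-only cells of tumour 2. Summed over the tested genes, 6 of 9 epithelial markers reached 3.35 and 5.48 CPM in members and others of tumour 1 and 1.84 and 2.55 in tumour 2, 3 of 6 endothelial markers 3.93, 4.39, 8.96 and 8.36, and 5 of 6 macrophage markers 11.2, 5.86, 11.3 and 8.48. The 2 Schwann markers tested reached 5.22, 10.8, 1.53 and 1.98 CPM. None of these lists held a call. The macrophage sum was higher in members of both tumours, and its part in the results was not tested. The 4 MHC class II genes of the antigen presentation list summed to 11.0 against 5.57 CPM in tumour 1 and 9.93 against 7.96 in tumour 2. Slpi, a secreted protease inhibitor and the fifth gene of that list, was at 14.9 against 7.93 and 33.3 against 13.3 CPM. None of the 5 was called, and the 12 immediate early and heat shock genes and 13 integrins tested held none either.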

How the data were processed

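Single-cell 3' RNA libraries were mapped by the authors with Cell Ranger 6.1.2 to mm10 and filtered for cells, per the labels. The deposited values are whole-number UMI counts of 32285 genes per barcode in 13 libraries (5230 to 14424 barcodes each). Whether counting used strand is not given in the sources used here. The members and gene lists were chosen with earlier results of these data known. Members and gates were applied as stated in the report, counts were summed per tumour and class, and sums were compared with limma-voom 3.58.1 (TMM, filterByExpr, Benjamini-Hochberg adjustment over all genes) with tumour as a replicate block. The study used the same kind of model for tumour fibroblasts. The block comes from the design, since both classes come from the same mouse and library. edgeR 4.0.16 and DESeq2 1.42.0 were alternatives, and doublets were the highest Scrublet scores (scanpy 1.11.5), at 0.8% per 1000 barcodes. On simulated sums of members and other fibroblasts over 14618 genes, limma called 100 of 100 genes changed 4-fold and 88 of 100 changed 2-fold at a dispersion of 0.02, with 7 false calls, and 100 of 100 of each at a dispersion of 0.005, with 12 false calls. Both dispersions were set and not estimated from these sums, and each changed gene had the same fold in both tumours. The simulation therefore checks the code and does not give the recovery in the real sums. Named genes were those of 24 lists, plus the 8 widest rises and 8 widest falls among other called genes of at least 20 CPM in the higher class of both tumours with the same direction, leaving out Gm, Rik and mt- genes. Total UMIs per library ran from 56551189 to 112550204, and intervals are 95% exact binomial. P-values rest on 2 mice.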

Additional observations from a re-analysis of the deposited data

How the results depend on the processing

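Of 209 calls between members and other fibroblasts, edgeR's quasi-likelihood test gave 106, DESeq2 765, RLE size factors 119, and no filter on low counts 464. Without the replicate block there were 0 (901 at an unadjusted p under 0.05), and with the hyperplasia added and no block 0 (1340). Removing doublets gave 0 by limma (2707), and, in fits added after seeing the data, 0 by edgeR (2577) and 664 by DESeq2. Moving the gate gave 512 (Lrrc15 at least 1), 82 (no Acta2 requirement), 114 (Acta2 at least 3) and 1532 (others with neither UMI), and leaving out cycling cells gave 91. Windows of 10000 to 30000 UMIs, thinning, a limit of 5% mt- UMIs and Lrrc15 at least 4 gave 164 to 287. Leaving out tumour 1 gave 139 calls and leaving out tumour 2 gave 773, each fitted with the hyperplasia, without a block, and with the lone tumour assumed to vary like the other sums. The causes of these shifts were not tested. The split moved with them, from 31 higher and 178 lower to 8 and 98 by edgeR and 274 and 491 by DESeq2.

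Against Lrrc15-only cells the 39 calls became 9 by edgeR, 0 without the replicate block (374 at an unadjusted p under 0.05) and 73 with no filter. Against Acta2-only cells the 125 became 1 without the replicate block. The share of members moved from 22.5% to 14.6% (thinned), 24.9% (Lrrc15 at least 1), 18.6% (at least 4), 20.9% (doublets removed) and 24.0% (at most 5% mt-) in tumour 1, and from 52.2% to 27.5%, 57.9% and 43.5% under the first 3 in tumour 2.

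Over the named genes that were followed across the settings, 16 of 1958 fits reversed in sign, in 6 genes without a call. Not every gene named in the text was followed. Des, Notch3 and Inhbb, whose signs differed between the tumours, were left out of this count. Mki67, at 0.03, became -0.0085 by edgeR, -0.38 at 10000 to 30000 UMIs, -0.70 thinned, -0.19 with Lrrc15 at least 4, -0.065 with no Acta2 requirement, -0.019 with Acta2 at least 3, and, without doublets, -0.020 by edgeR and -0.0031 by DESeq2. Its difference in shares in tumour 1 became -0.107 points at 2500 UMIs. Axin2, at -0.11, became 0.14 at 10000 to 30000 UMIs and 0.19 thinned. Leaving out tumour 1 and then tumour 2 gave -0.12 and 1.04 for Cdkn1a, 0.26 and -0.27 for Axin2, -0.0059 and 1.51 for Nkd2, -0.021 and 1.18 for Crabp1, 0.43 and -0.39 for Mki67, and 0.41 and -0.86 for Top2a. All 47 named genes with a call kept their direction under every alternative and lost the call without the block, with hyperplasia added, and without doublets by limma or edgeR. Without doublets their log2 differences were 1.03 to 1.34 times the full-set values by limma and 0.996 to 1.35 times by edgeR, with adjusted p from 0.0702 to 0.177, and DESeq2 called all 47. Of the 47, calls were also lost for 22 with no Acta2 requirement, 19 with cycling cells left out, 18 by edgeR, 17 without tumour 1, 15 with Acta2 at least 3, 14 with RLE size factors, 9 without tumour 2, and 1 to 5 under thinning, the depth window, 5% mt-, Lrrc15 at least 4 and others with neither UMI. With 2 tumours the main comparison has 1 residual degree of freedom, and low-count genes such as Actg2 and Bmp4 rest on few UMIs.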
